A study of Caenorhabditis elegans with 15 samples.

Results

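dod-21, dod-24 and C32H11.9 are 3 neighbouring genes of Caenorhabditis elegans chromosome IV, here followed through RNA-seq libraries of 3 strains. They are 3 of the 20191 genes in the count table and were chosen by name and position. They were also selected on measured values of these same libraries, because both mutant strains exceeded the wild type and C32H11.9 had no wild-type counts. Differences of these genes from the wild type are therefore given below as a description with no test. The double mutant over the fndc-1 mutant is the comparison in which they were tested.

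dod-24 and dod-21 take their names from a screen for genes downstream of DAF-16, the FOXO transcription factor of the insulin-like pathway. Both belong to a group of nematode genes encoding predicted secreted proteins with a CUB-like domain, many of which are made in the intestine. Several genes of the group are induced when worms feed on pathogenic bacteria, and many genes of that intestinal response depend on the PMK-1 p38 MAP kinase pathway. FNDC-1 is the worm counterpart of the mammalian mitophagy receptor FUNDC1, and ATFS-1 drives the transcriptional response to unfolded proteins in mitochondria.

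Whole day 1 adults of the N2 background, grown without stress, were used for RNA extraction, with the OP50 bacteria removed beforehand. The double mutant carries atfs-1(tm4525) and fndc-1(rny14), the single mutant carries fndc-1(rny14), and the wild type is N2, with 5 libraries each. Both mutant strains carry the same fndc-1 allele, and each mutated gene is represented by 1 allele. A strain with mutant atfs-1 and intact fndc-1 was not analysed here, so the double mutant over fndc-1 compares 2 strains that the labels distinguish by atfs-1(tm4525). The effect of that allele cannot be told apart from other differences between the strains.

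The libraries held between 46984106 and 61921123 counts assigned to genes. fndc-1 transcript was measured at 7.95 ± 1.27 CPM (counts per 1000000 counts, after TMM scaling) in the double mutant, at 7.39 ± 0.130 CPM in the fndc-1 mutant and at 40.9 ± 3.83 CPM in the wild type (SD, n = 5 each). atfs-1 transcript measured 75.4 ± 4.59 CPM in the double mutant, 93.4 ± 4.66 CPM in the fndc-1 mutant, against 104.0 ± 4.92 CPM in the wild type (SD, n = 5 each), and in the double mutant over fndc-1 it fell by 0.31 on the log2 scale (adjusted p 0.0156 in edgeR's quasi-likelihood test). In a principal component analysis, double-mutant library 4 lay at one end of the first component, which held 41.4% of the variance. Double-mutant library 2 lay alone at the end of the second component, with 14.7% of the variance. Where leaving out double-mutant libraries 2 and 4 together ended a call given below for a gene of the cluster, its window or the gene lists, that is stated. The labels do not say whether the 5 libraries of a strain came from separate cultures, so every p-value measures the spread between these libraries, which may be technical.

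The annotation of genome build WBcel235 places the 3 genes within 6344 bases. C32H11.9 (WBGene00007872, also named cld-1 in the annotation) lies on the minus strand at chrIV:12935011-12936271. dod-21 (WBGene00007873, sequence name C32H11.10) lies on the plus strand at chrIV:12936738-12937988. dod-24 (WBGene00007875, sequence name C32H11.12) lies on the minus strand at chrIV:12940106-12941354. C32H11.9 and dod-21 are thus divergent, with 466 bases between their 5′ ends, and 2117 bases separate dod-21 from dod-24.

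The 3 gene models are alike in layout as well as in position. Each is protein coding with 3 exons, and in all of them the middle exon holds 669 coding bases and the last exon holds 130. The coding part of the first exon is 308 bases in C32H11.9 and 284 in both dod-21 and dod-24. The introns measure 64 and 47 bases in C32H11.9, the same 64 and 47 bases in dod-21, and 45 and 47 bases in dod-24. C32H11.9 and dod-21 also have neighbours placed in mirror image. C32H11.8 lies 239 bases beyond C32H11.9 on the same strand, and C32H11.11 lies 224 bases beyond dod-21 on the same strand.

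**Figure D1:**
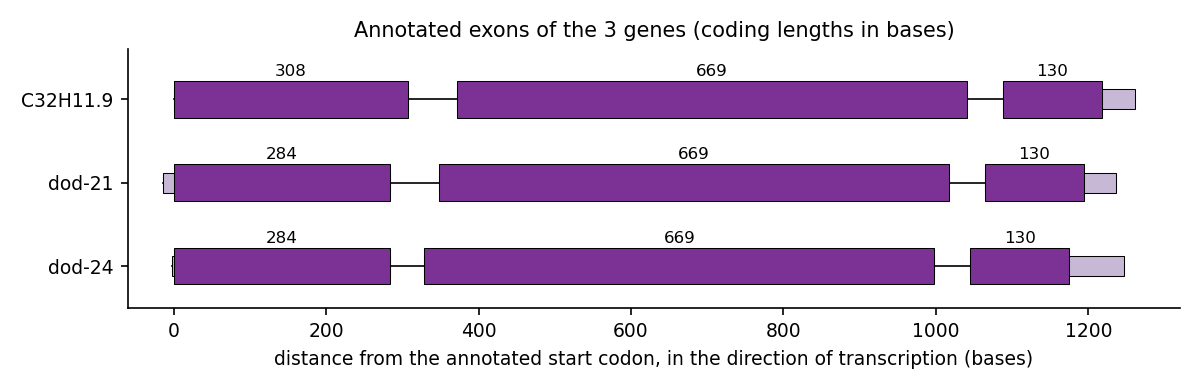
Exon models of C32H11.9, dod-21 and dod-24, each drawn 5′ to 3′ on a scale in bases, with boxes for exons, lines for introns and the coding length of each exon written on it. The middle exon holds 669 coding bases and the last exon 130 in all 3 genes, and the introns of C32H11.9 and dod-21 are both 64 and 47 bases long.

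This layout bears on what the counts can say. How reads that match more than one gene were treated, and with which strand setting reads were counted, is not given in the sources used here. The division of reads between C32H11.9 and dod-21 is therefore uncertain, and their sum is given beside the separate values. C32H11.11, the mirror partner of C32H11.8, had 0 counts in all 15 libraries, whereas C32H11.8 had 161 counts over the double-mutant libraries, 30 over the fndc-1 libraries and 43 over the wild-type libraries. Of the 161, double-mutant library 4 held 128, and the other double-mutant libraries held between 3 and 20 each. Of the 30, fndc-1 library 4 held 21.

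dod-24 was the most abundant of the 3 genes in every strain, and its levels followed the order double mutant, fndc-1 mutant, wild type. In the double-mutant libraries 1 to 5 it measured 84.8, 116, 74.2, 56.9 and 65.7 CPM. In the fndc-1 libraries 1 to 5 it measured 48.8, 35.6, 36.2, 23.5 and 20.1 CPM. In the wild-type libraries 1 to 5 it measured 12.2, 14.9, 8.52, 14.6 and 9.69 CPM. No strain overlapped another, and the narrowest gap, 5.14 CPM, separated the lowest fndc-1 library from the highest wild-type library. The strain means were 79.5 ± 22.9 CPM in the double mutant, 32.8 ± 11.5 CPM in the fndc-1 mutant, against 11.98 ± 2.87 CPM in the wild type (SD, n = 5 each).

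dod-24 rose in the double mutant over the fndc-1 mutant, by a log2 fold change of 1.28 (SE 0.25, 95% interval 0.79 to 1.77). The adjusted p was 0.0188 in edgeR's quasi-likelihood test with Benjamini-Hochberg adjustment over the 15032 genes tested. It was the only one of the 3 genes past the 0.05 threshold in that comparison, in which 0.738% of all genes tested were past it and higher, and 0.239% past it and lower. The call did not hold without double-mutant library 1 (log2 1.25, adjusted p 0.0503), fndc-1 library 2 (1.31, 0.0706), fndc-1 library 4 (1.18, 0.0559) or fndc-1 library 5 (1.13, 0.0632) in the same test. It was also lost when double-mutant libraries 2 and 4 were left out together (1.18, adjusted p 0.0502), when fndc-1 libraries 4 and 5 were left out together (0.97, adjusted p 0.126), and when only the 2 strains compared were fitted (1.24, adjusted p 0.0820). The difference itself stayed between 0.97 and 1.46 under all the alternatives run.

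For dod-24 against the wild type, the values that chose it, the fitted log2 fold change was 2.73 (SE 0.26) in the double mutant and 1.46 (SE 0.25) in the fndc-1 mutant. As ratios of mean CPM the double mutant was 6.64 times the wild type and the fndc-1 mutant 2.74 times, and the double mutant was 2.42 times the fndc-1 mutant. In whole worms, fewer cells of a type and less RNA per cell cannot be told apart, so these levels are per worm RNA and not per intestinal cell.

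**Figure D2:**
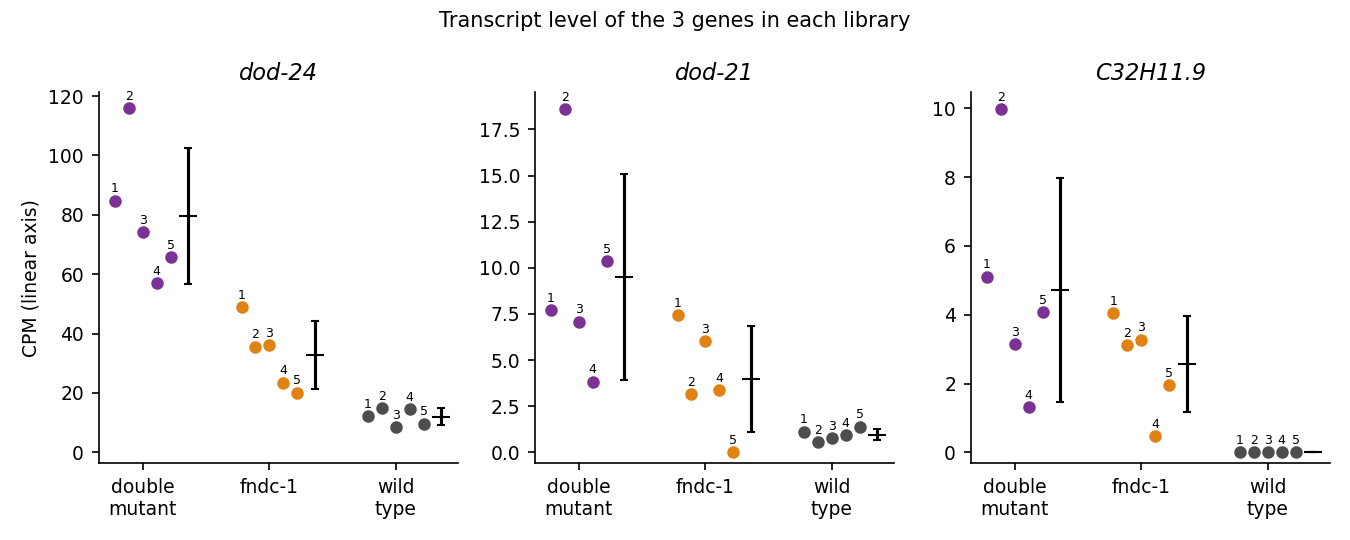
CPM of dod-24, dod-21 and C32H11.9 in each of the 15 libraries, on a separate axis for each gene, with numbers marking the library and bars the mean ± SD of 5 libraries in the double mutant, the fndc-1 mutant and the wild type. The 3 strains are separate for dod-24, the mutants overlap for dod-21 and C32H11.9, and C32H11.9 sits at 0 in every wild-type library.

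dod-21 was measured at a lower level and with a wider spread than dod-24. Its double-mutant libraries 1 to 5 held 7.71, 18.6, 7.08, 3.83 and 10.4 CPM. The fndc-1 libraries 1 to 5 held 7.42, 3.17, 6.04, 3.36 and 0 CPM. The wild-type libraries 1 to 5 held 1.13, 0.566, 0.774, 0.949 and 1.395 CPM. Every double-mutant library exceeded every wild-type library, and both mutants overlapped each other. fndc-1 library 5, with no dod-21 count, lay below the wild type, whereas the other fndc-1 libraries lay above it.

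The dod-21 means were 9.52 ± 5.58 CPM in the double mutant, 3.998 ± 2.87 CPM in the fndc-1 mutant, against 0.963 ± 0.319 CPM in the wild type (SD, n = 5 each). The coefficient of variation of dod-21 was 58.7% in the double mutant and 71.8% in the fndc-1 mutant, against 28.7% and 34.9% for dod-24 in the same strains. The double mutant over fndc-1 log2 fold change of dod-21 was 1.25, close to that of dod-24 in size, with a 95% interval from -0.19 to 2.70. Its adjusted p of 0.517 in edgeR's quasi-likelihood test did not pass, so a difference was not detectable at this spread. Against the wild type, again as a description, the fitted log2 fold change was 3.30 (SE 0.80) in the double mutant and 2.05 (SE 0.77) in the fndc-1 mutant.

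C32H11.9 differed from dod-21 and dod-24 in having no wild-type count at all. Its counts in double-mutant libraries 1 to 5 were 286, 578, 164, 75 and 205. Its counts in fndc-1 libraries 1 to 5 were 199, 155, 158, 27 and 101. All 5 wild-type libraries held 0. The mutants overlapped, and every mutant library lay above the wild type. The means were 4.72 ± 3.25 CPM in the double mutant and 2.57 ± 1.39 CPM in the fndc-1 mutant (SD, n = 5 each). A count of 0 was taken to allow up to 3 counts over the 5 wild-type libraries. As counted, mean C32H11.9 was then at least 413-fold higher in the double mutant and at least 225-fold higher in the fndc-1 mutant than in the wild type. This is a description, since the 0 chose the gene. The bounds are for strain means, not for single libraries. They fail if wild-type reads of C32H11.9 were counted on dod-21. The sum of both genes, free of that division, averaged 14.8 times the wild type in the double mutant and 6.82 times in the fndc-1 mutant. On the log2 scale the bounds are 8.69 and 7.81, and single libraries left out lowered them to 8.22 and 7.43. The double mutant over fndc-1 log2 fold change was 0.88 (SE 0.58, 95% interval -0.26 to 2.01), with an adjusted p of 0.552 in edgeR's quasi-likelihood test. Without double-mutant library 2 it was 0.40, and without fndc-1 libraries 4 and 5 together it was 0.43.

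Per length, as CPM per kilobase of exon (RPKM), the order of the 3 genes was the same in both mutants. dod-24 averaged 68.7 RPKM in the double mutant, 28.4 in the fndc-1 mutant and 10.4 in the wild type. dod-21 averaged 8.35 RPKM in the double mutant, 3.51 in the fndc-1 mutant and 0.845 in the wild type. C32H11.9 averaged 4.11 RPKM in the double mutant and 2.24 in the fndc-1 mutant. Mean dod-24 RPKM was 8.23 times mean dod-21 RPKM in the double mutant, 8.09 times in the fndc-1 mutant and 12.3 times in the wild type. dod-21 was 2.03 times C32H11.9 in the double mutant and 1.57 times in the fndc-1 mutant, a gap within the spread of both genes over libraries.

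The share of C32H11.9 in the pooled counts of the divergent pair varied between libraries of one mutant strain. In double-mutant libraries 1 to 5 it was 39.8%, 34.9%, 30.8%, 25.4% and 28.2%. In fndc-1 libraries 1 to 5 it was 35.3%, 49.5%, 35.1%, 12.4% and 100%. In the wild type it was 0% in all 5 libraries. Among the mutant libraries the lowest and the highest share both came from the fndc-1 mutant. In its library 4 the share was 12.4% (Wilson 95% interval 8.65% to 17.4%), and in its library 5 all 101 counts went to C32H11.9 (interval 96.3% to 100%). The 5 wild-type libraries held 258 pair counts, all on dod-21, and a count of 0 allows a share of up to 1.16%. These intervals cover counting error only.

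The mean share was 31.8% ± 5.67 in the double mutant and 46.5% ± 32.8 in the fndc-1 mutant (SD, n = 5 each). The difference of -14.6 percentage points was within the spread (two-sided exact permutation test, p = 0.437, adjusted p = 0.683 over 2 comparisons). Without fndc-1 library 5 the difference was -1.24 percentage points.

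**Figure D3:**
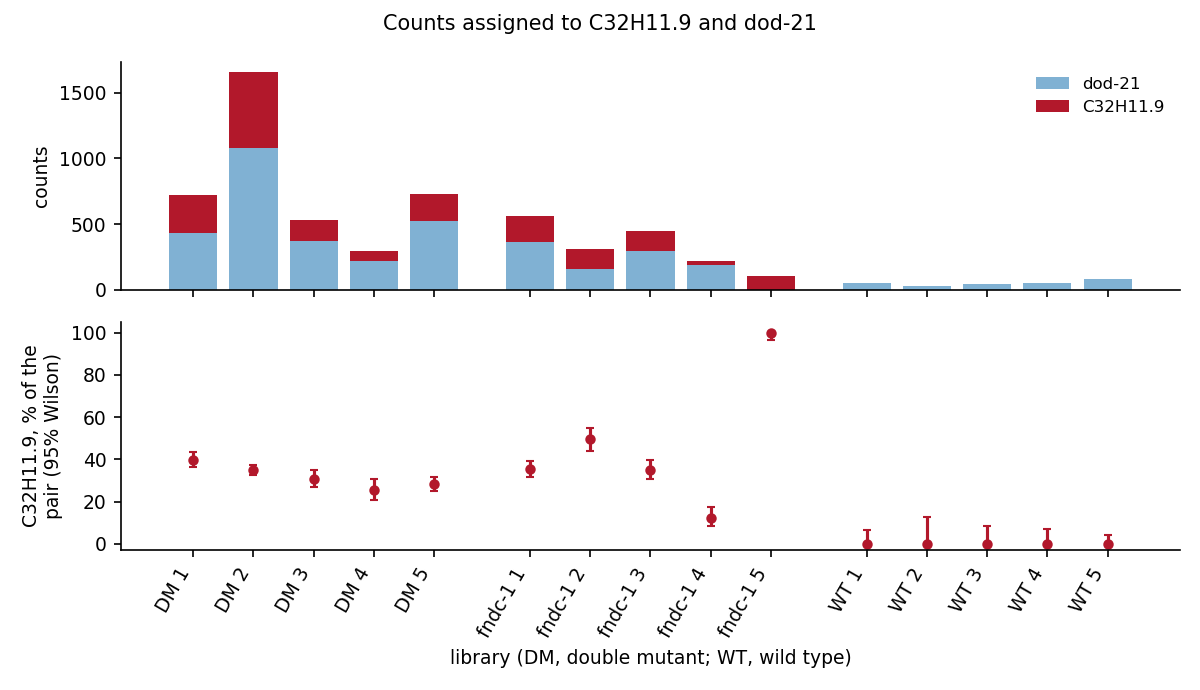
Counts of C32H11.9 and dod-21 stacked for each of the 15 libraries, and the percent of the pair's counts on C32H11.9 with its Wilson 95% interval, with double-mutant, fndc-1 and wild-type libraries from left to right. The share lies between 25.4% and 39.8% in the double mutant and between 12.4% and 100% in the fndc-1 mutant, and is 0% in the wild type.

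The sum of C32H11.9 and dod-21 does not depend on how the counted reads were divided between them. It measured 12.8, 28.6, 10.2, 5.14 and 14.5 CPM in double-mutant libraries 1 to 5. It measured 11.5, 6.27, 9.31 and 3.83 CPM in fndc-1 libraries 1 to 4. In fndc-1 library 5 it equals C32H11.9, and in the wild type it equals dod-21. As a sum, every library of both mutants lay above every wild-type library, fndc-1 library 5 included, and the mutants overlapped each other. The sum averaged 14.2 ± 8.75 CPM in the double mutant, 6.57 ± 3.88 CPM in the fndc-1 mutant, against 0.963 ± 0.319 CPM in the wild type (SD, n = 5 each). Its fitted log2 fold change was 1.13 (95% interval 0.20 to 2.07) in the double mutant over fndc-1. Leaving out single libraries gave 0.69 to 1.41 there, and no call is made on the sum. Against the wild type the fitted value was 3.90 (SE 0.54) in the double mutant and 2.77 (SE 0.52) in the fndc-1 mutant.

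The pair was also set against dod-24 library by library. Its summed counts were 16.9% ± 6.34 of the dod-24 counts in the double mutant, 18.6% ± 6.31 in the fndc-1 mutant and 8.61% ± 3.94 in the wild type (SD, n = 5 each). The 2 mutants differed by -1.67 percentage points (two-sided exact permutation test, p = 0.683, adjusted p = 0.683). Without double-mutant library 4 the difference was 0.301 points, and without fndc-1 library 3 it was 0.117 points, so its direction rested on single libraries.

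Within the double mutant, library 2 was the highest and library 4 the lowest for all 3 genes. Within the fndc-1 mutant, library 1 was the highest for all 3, while the lowest was library 5 for dod-24 and dod-21 and library 4 for C32H11.9. In the wild type the order differed between genes, with library 2 highest for dod-24 and lowest for dod-21. As a description over the 15 libraries, Pearson's r of log2 CPM was 0.91 between C32H11.9 and dod-24, 0.71 between dod-21 and dod-24, and 0.53 between C32H11.9 and dod-21. After the strain means were taken out, these values were 0.69, 0.60 and 0.26. All these values share the libraries and their depth, and the split of reads within the divergent pair enters those of C32H11.9 and dod-21.

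The genes most like dod-24 over the 15 libraries were ranked by Pearson's r of log2 CPM, with no test. K08D8.5, a CUB-like gene within 25000 bases of the cluster, came first with r = 0.96, and it had r = 0.92 after the strain means were taken out. It was followed by the C-type lectin gene clec-209 (0.94), the SWEET family sugar transporter gene swt-3 (0.94), F56A4.2 (0.94) and the acyltransferase gene oac-20 (0.93). clec-209 and F56A4.2 had mean levels of 333.2 and 332.2 CPM in the double mutant, and whether they share reads was not tested. For dod-21 the first 5 were acp-5 (0.84), Y41D4B.17 (0.82), the lysozyme gene lys-1 (0.81), ZK418.6 (0.81) and oac-58 (0.80). For C32H11.9 they were dct-17 (0.95), C35B1.5 (0.94), Y49G5A.1 (0.93), H20E11.3 (0.93) and eppl-1 (0.92). None of the 15 remained in the first 5 when deviations from the strain means were used instead.

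Genes around the cluster were examined over a window of 25000 bases on each side, chrIV:12910011-12966354. It held 16 other genes of the table, 9 of which passed the filter on low counts. In the double mutant over fndc-1, 3 of the 9 rose and none fell, and all 9 log2 fold changes were positive, with a median of 1.02 against 0.02 over all genes tested. The values of C32H11.5 and C32H11.8 rest largely on double-mutant library 4. C32H11.5 measured 1.55 CPM there and 0.120 to 0.380 CPM in the other double-mutant libraries. C32H11.8 measured 2.23 CPM there and 0.0575 to 0.345 CPM in the others. Over all genes tested, 0.738% rose and 0.239% fell. K08D8.5 rose by 0.96 (SE 0.12, adjusted p 0.000403 in edgeR's quasi-likelihood test), with 19.9 ± 2.18 CPM in the double mutant and 10.3 ± 1.80 CPM in the fndc-1 mutant (SD, n = 5 each). C32H11.4 rose by 1.02 (adjusted p 0.0188) and irg-6, an infection response gene, by 1.81 (adjusted p 0.0424) in the same test, irg-6 at only 0.725 CPM in the double mutant and 0.205 CPM in the fndc-1 mutant. The count fell to 1 of 9 without double-mutant library 1 or 3 or fndc-1 library 1, 2 or 3, each left out alone. In the same test, the C32H11.4 call was also lost when only the 2 strains compared were fitted (adjusted p 0.112) and with replicate number as a block (0.0800). The irg-6 call was lost without any single fndc-1 library (adjusted p up to 0.138), and without double-mutant library 1, 3 or 5. It was also lost without wild-type library 1, 2 or 5, and when only the 2 strains compared were fitted (0.0648). With RLE factors (0.0508), with no filter (0.0578) and without fndc-1 libraries 4 and 5 together (0.210) it was lost too. limma-voom gave irg-6 an adjusted p of 0.0701.

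In the fndc-1 mutant over the wild type, 1 of the 9 neighbours rose and none fell, and 7 were positive, with a median of 0.46. This was C32H11.4, with 4.52 ± 1.26 CPM in the fndc-1 mutant, against 1.26 ± 0.125 CPM in the wild type (SD, n = 5 each). Its log2 fold change was 1.85 (SE 0.21, adjusted p 0.000129 in edgeR's quasi-likelihood test), beside 1.46 (SE 0.25) for dod-24. Across all genes tested, 1.18% rose and 0.685% fell in this comparison. Without fndc-1 library 5, K08D8.5 also passed (0.52, adjusted p 0.0363), which made 2 of 9.

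In the double mutant over the wild type, 6 of the 9 neighbours rose and none fell, against 3.71% that rose and 0.998% that fell over all genes tested, and the median was 1.49. They were C32H11.4 (log2 fold change 2.86), irg-6 (2.65), dod-22 (2.03), K08D8.5 (1.37), F55G11.8 (1.35) and C32H11.3 (1.23). All 6 also belong to the list of CUB-like genes counted below, so the 2 counts share genes. With double-mutant libraries 2 and 4 left out, 3 of the 9 passed. In edgeR's quasi-likelihood test dod-22 (1.69, adjusted p 0.0646), F55G11.8 (0.96, 0.0686) and C32H11.3 (1.09, 0.0819) then did not. C32H11.3 was also lost when only the 2 strains compared were fitted (adjusted p 0.0735 in the same test). C32H11.8, next to C32H11.9, did not pass in any comparison. It measured 2.23 CPM in double-mutant library 4, and between 0.0575 and 0.345 CPM in the other double-mutant libraries, so its double-mutant mean rests on 1 library. dct-19, next to dod-24, had too few counts to be tested.

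**Figure D4:**
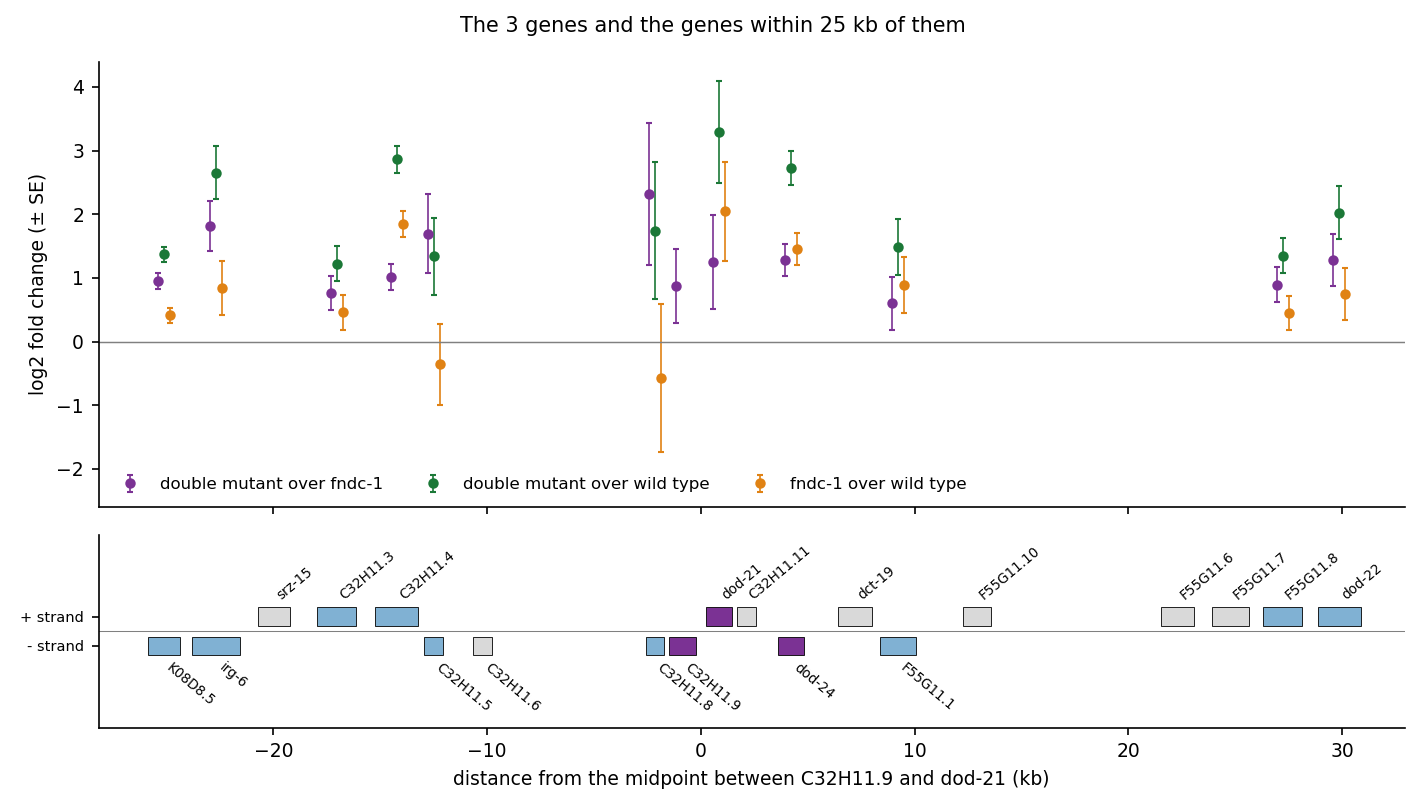
Fitted log2 fold change ± SE against distance in kilobases from the midpoint between C32H11.9 and dod-21. The upper panel overlays the double mutant over fndc-1 (purple), the fndc-1 mutant over the wild type (orange) and the double mutant over the wild type (green). Points of the 3 comparisons are shifted slightly sideways from each other. The lower track shows gene boxes coloured purple for the 3 genes, blue for other tested genes and grey for genes not tested. All 9 neighbours lie above 0 in the double mutant over fndc-1 and in the double mutant over the wild type, and 7 do in the fndc-1 mutant over the wild type. C32H11.9 against the wild type is left out because its wild-type counts were 0.

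Absence of overlap between strains, the criterion by which dod-24 was separate in all 3 comparisons, was met with a higher level by 2.67% of all genes tested in the double mutant over fndc-1. The share was 4% in the fndc-1 mutant over the wild type and 4.42% in the double mutant over the wild type. dod-21 met it only in the double mutant over the wild type, and C32H11.9 met it against the wild type in both mutants. In the comparisons with the wild type nothing is read from these counts, since the genes were chosen by those values.

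Other genes with a CUB-like domain were taken from a hand-made list of 23, with the 3 cluster genes left out. The list was chosen with earlier results of these data known. Its counts therefore describe the listed genes and do not test the family. Of these, 22 were tested and 7 lie in the window. Over the fndc-1 mutant, 5 of the 22 rose in the double mutant, none fell and 21 were positive, against 0.738% that rose and 0.239% that fell over all genes tested. Their median was 0.83, and that of all genes tested 0.02. Beside K08D8.5, C32H11.4 and irg-6 of the window these were irg-4 (1.03, adjusted p 0.0153) and C17H12.6 (1.41, adjusted p 0.0142) in edgeR's quasi-likelihood test. irg-4 did not pass without fndc-1 library 1 (0.94, adjusted p 0.0547), nor without fndc-1 libraries 4 and 5 together (adjusted p 0.0669). C17H12.6 did not pass when fndc-1 library 2 (adjusted p 0.0578) or 5 (0.0517) was left out, nor when double-mutant libraries 2 and 4 (0.0805) or fndc-1 libraries 4 and 5 (0.102) were left out in pairs. The count was 2 without fndc-1 library 1 or 2, and 3 without double-mutant library 1 or 3 or fndc-1 library 3 or 5. Of the 16 listed genes outside the window, 2 rose, and their median was 0.31.

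In the fndc-1 mutant over the wild type, 6 of the 22 rose and none fell, against 1.18% that rose and 0.685% that fell over all genes tested, and the median was 0.61. The log2 fold changes were 1.88 for dct-17, 1.85 for C32H11.4, 1.61 for drd-50, 0.99 for irg-4, 0.78 for F35E12.10 and 0.66 for K08D8.4. For irg-4 the call was lost without wild-type library 2 or 4, and for K08D8.4 without fndc-1 library 2 or 3. In edgeR's quasi-likelihood test irg-4 also failed without fndc-1 libraries 4 and 5 together (adjusted p 0.0601). K08D8.4 failed there with replicate number as a block (adjusted p 0.0546). Over the wild type, 17 of the 22 rose in the double mutant, none fell, all 22 were positive and the median was 1.24, where 3.71% of all genes tested rose and 0.998% fell. drd-50 had a log2 fold change of 2.81 there and dod-17 one of 1.59. Of the 16 listed genes outside the window, 11 rose in the double mutant over the wild type, with a median of 1.09. With double-mutant libraries 2 and 4 left out, 11 of the 22 passed. dod-17 then did not (1.31, adjusted p 0.0619 in edgeR's quasi-likelihood test).

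dct-17 and F35E12.10 had another pattern over the strains than dod-24. dct-17 measured 17.4 ± 1.28 CPM in the double mutant, 15.3 ± 5.44 CPM in the fndc-1 mutant, against 4.16 ± 0.906 CPM in the wild type (SD, n = 5 each). F35E12.10 measured 48.7 ± 3.77 CPM in the double mutant, 47.1 ± 2.05 CPM in the fndc-1 mutant, against 27.3 ± 5.61 CPM in the wild type (SD, n = 5 each). In the double mutant over fndc-1 their log2 fold changes were 0.19 (adjusted p 0.698) and 0.05 (adjusted p 0.834) in edgeR's quasi-likelihood test, against 1.28 for dod-24. Whether these differences between genes exceed error was not tested.

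**Figure D5:**
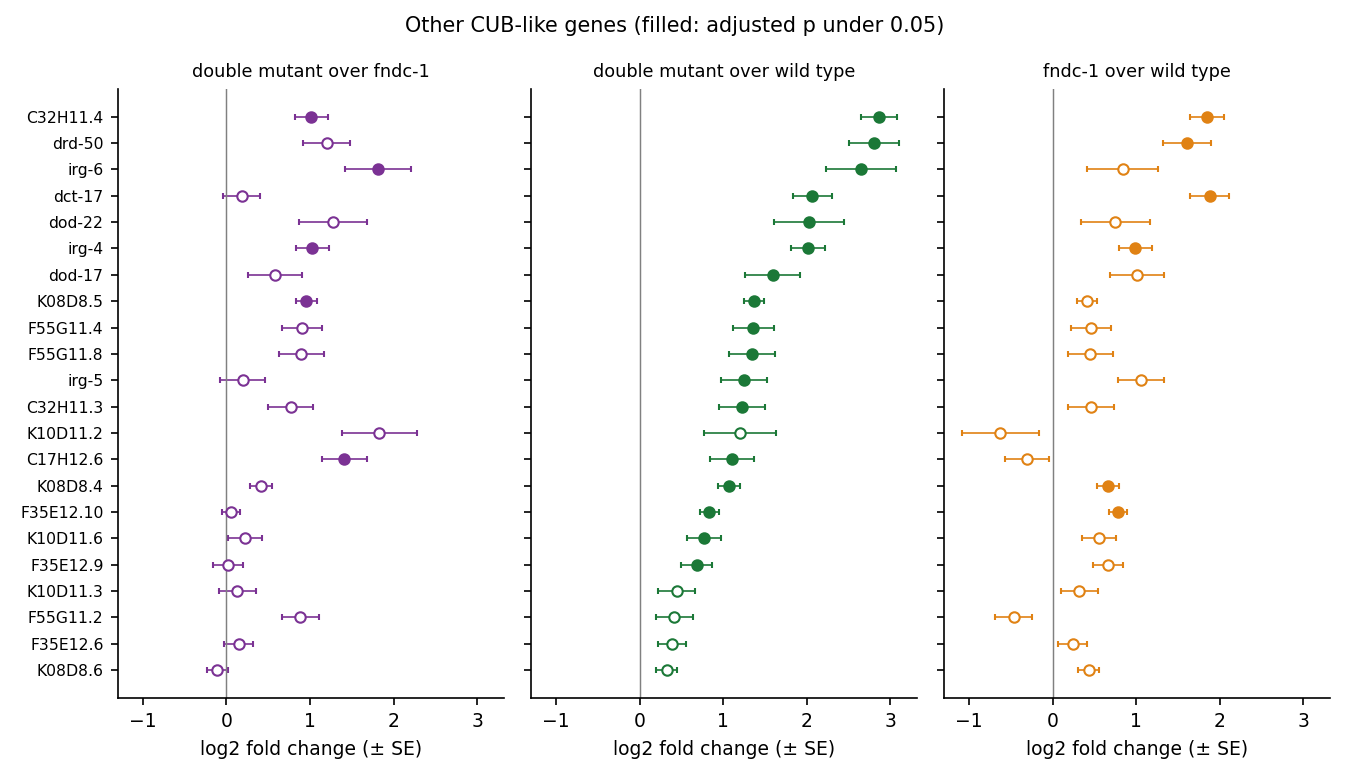
Fitted log2 fold change ± SE of the 22 tested genes of the CUB-like list in the double mutant over fndc-1, the fndc-1 mutant over the wild type and the double mutant over the wild type, with filled points for an adjusted p under 0.05. Filled points number 5, 6 and 17 in these comparisons, all above 0.

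Genes of the pathways in which dod-21 and dod-24 are usually placed were counted from further hand-made lists. These lists too were chosen with earlier results of these data known, so their counts are a description. Of 6 genes of the p38 MAP kinase pathway, none passed the test in any comparison, and the medians lay between -0.18 and 0.04. Of 10 transcription factors and insulin-pathway regulators, none passed either, with medians from -0.27 to -0.09. With 6 and 10 genes, and between 0.738% and 3.71% of all genes tested rising in a comparison, counts of 0 say little. Transcript levels of these genes say nothing of the activity of their proteins. Of 19 intestinal pathogen response genes, 3 of them also in the CUB-like list, 4 rose in the double mutant over fndc-1, 1 in the fndc-1 mutant over the wild type and 10 in the double mutant over the wild type, and none fell. Over all genes tested, 0.738%, 1.18% and 3.71% rose in these comparisons. Of the 4, irg-4 and irg-6 are counted in the CUB-like list too. The lysozyme gene lys-2 was also among the 4, at 157.2 ± 29.7 CPM in the double mutant, 82.6 ± 23.5 CPM in the fndc-1 mutant, against 72.5 ± 7.77 CPM in the wild type (SD, n = 5 each). In the double mutant over fndc-1 it rose by 0.93 on the log2 scale (adjusted p 0.0191 in edgeR's quasi-likelihood test), a call lost without double-mutant library 2 or 4 or fndc-1 library 4. F01D5.1, another listed gene, had 1.04 (adjusted p 0.0149) in that comparison. Its call was lost without fndc-1 library 2 or 5, without double-mutant libraries 2 and 4 together (0.75, adjusted p 0.115), without fndc-1 libraries 4 and 5 together (0.97, adjusted p 0.137) and with replicate number as a block (1.03, adjusted p 0.0544). For lys-2, leaving out double-mutant libraries 2 and 4 together gave 0.70 (adjusted p 0.162). Leaving out fndc-1 libraries 4 and 5 together gave lys-2 0.64 (adjusted p 0.0742), and fitting only the 2 strains compared gave 0.89 (adjusted p 0.127).

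Other genes that carry the dod name were counted in the same way. Of 8 other dod genes, none passed in the double mutant over fndc-1, 1 rose in the fndc-1 mutant over the wild type and 3 rose in the double mutant over the wild type, and none fell. With 8 genes and all-gene shares of 0.738%, 1.18% and 3.71% rising, a count of 0 in the first comparison says little. The 3 were dod-17, dod-19 and dod-22, the first and last of which are in the CUB-like list. With double-mutant libraries 2 and 4 left out, dod-17 (1.31, adjusted p 0.0619) and dod-22 (1.69, adjusted p 0.0646) did not pass in edgeR's quasi-likelihood test. dod-19 measured 226.4 ± 26.7 CPM in the double mutant, 170.7 ± 36.04 CPM in the fndc-1 mutant, against 111.9 ± 10.7 CPM in the wild type (SD, n = 5 each). Its fndc-1 over wild type log2 fold change of 0.61 (adjusted p 0.0324 in edgeR's quasi-likelihood test) was past the threshold in the full set. It was not without fndc-1 library 1, 2 or 3, wild-type library 1, 2, 4 or 5, or the fifth double-mutant library. With replicate number as a block (adjusted p 0.0853) or upper-quartile factors (0.0527) it also did not pass in the same test.

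Markers of several tissues were summed in each library, and their part in the results on the cluster was not tested. All 6 intestinal markers had counts in every library, and their summed level was 1173 to 1601 CPM in the double mutant, 1164 to 1540 CPM in the fndc-1 mutant, against 875.9 to 1261 CPM in the wild type. Of the 6, act-5 (0.52) and vha-6 (0.43) rose in the double mutant over the wild type, while ges-1 (-0.10), elt-2 (-0.05), pept-1 (-0.13) and ifb-2 (0.23) did not pass there, and none passed in the other comparisons. The 3 hypodermal markers summed to 1262 to 2089 CPM in the double mutant, 991 to 1330 CPM in the fndc-1 mutant, against 589.3 to 1135 CPM in the wild type. Most of that sum was the collagen gene col-19, with a mean of 1508 CPM in the double mutant, against 820.3 CPM in the wild type. The 12 sperm markers summed to 68.7 to 361.1 CPM in the double mutant, 38.2 to 181.1 CPM in the fndc-1 mutant, against 14.1 to 114.6 CPM in the wild type, with the highest value in double-mutant library 4, and none of the 12 passed the test in any comparison. Wild-type libraries 2 and 4 held 114.6 and 92.8 CPM of sperm markers, and the other wild-type libraries 14.1 to 15.8 CPM. Double-mutant library 4 had the lowest values of all 3 cluster genes in its strain. Double-mutant library 2, with the highest values of all 3, had the lowest summed yolk protein transcripts of all libraries, at 22800 CPM. It was also the lowest of all in the 3 germline markers, at 1065 CPM, and in the 2 muscle markers, at 187.5 CPM, whereas double-mutant library 4 was the highest in muscle markers, at 1145 CPM. The other libraries lay between 1891 and 2648 CPM in germline markers, and between 369.1 and 764.7 CPM in muscle markers.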

How the data were processed

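RNA-seq of whole worms was summarised by the authors as raw read counts per gene, deposited as 1 table of 20191 genes and 15 libraries. Per the submitters' processing notes the tools were Trimmomatic 0.36, STAR 2.6.0c and featureCounts of Subread 1.6.1, with build WBcel235. Per the labels' protocols libraries were made with a stranded mRNA kit. The sources used here do not give the annotation release, the strand setting or the treatment of multiply matching reads. Gene positions and exons came from Ensembl release 115 of the same build, which matched 20032 of the gene names. No gene or protein sequence was used.

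From the counts, TMM factors, CPM and RPKM (CPM per kilobase of merged exons) were computed. Genes passing edgeR's filterByExpr by strain, 15032 in number, were fitted with edgeR 4.0.16's quasi-likelihood test over all 15 libraries (R 4.3.3), with Benjamini-Hochberg adjustment and a threshold of 0.05. SE was taken as the absolute log2 fold change over the root of the F statistic. The code was tested on simulated data. Shares have Wilson intervals (95%), and exact permutation tests used scipy 1.17.1. The limit for a count of 0 is 3 counts.

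The 3 genes and the lists were chosen with earlier results of these data known. Neighbours named are those past the threshold in any comparison and the adjacent ones. From lists, up to 6 CUB-like genes and up to 3 of the others per comparison and direction were named by adjusted p, and the 5 most like genes by Pearson's r. The CUB-like list stood in for a protein similarity search. Intestinal, yolk, sperm, germline, muscle and hypodermal markers were summed. All lists' genes come from general knowledge and were not checked against sequence. Alternatives were DESeq2 1.42.0, limma-voom 3.58.1, RLE and upper-quartile factors, other filters, only the strains compared, a replicate block, libraries left out singly or in pairs, and summed genes. Libraries of a strain differed by more than sampling noise (lowest chi-square per gene 8.07), so none was merged.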

Additional observations from a re-analysis of the deposited data

Results flagged for a closer look

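None of the 3 cluster genes or their sums had a single library far from the others of its strain by Dixon's criterion for 5 values. Of 64 groups of libraries examined, 3 had such a value, and chance flags about 1 in 20 groups. dod-17 measured 12.8 CPM in double-mutant library 4, whereas the other double-mutant libraries lay between 6.65 and 8.38 CPM. dod-19 measured 130.4 CPM in wild-type library 3, whereas the other wild-type libraries lay between 104.4 and 110.2 CPM. irg-4 measured 6.08 CPM in wild-type library 1, whereas the other wild-type libraries lay between 3.415 and 3.66 CPM.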

How the results depend on the processing

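dod-24, dod-21 and C32H11.9 kept a positive double mutant over fndc-1 value under every alternative run. For dod-24 the call was lost with double-mutant libraries 2 and 4 left out (1.18) and with only the strains compared (1.24, adjusted p 0.0820). It was also lost with fndc-1 libraries 4 and 5 left out, an alternative chosen after seeing the data (0.97). Leaving out single libraries gave 1.09 to 1.46, with adjusted p from 0.00990 to 0.0706 in edgeR's quasi-likelihood test. DESeq2 gave dod-24 1.25 with an adjusted p of 8.27e-05. dod-21 stayed short of the threshold, from 0.77 (fndc-1 libraries 4 and 5 left out) to 2.64 (limma-voom). The pair's counts relative to dod-24 differed by -3.88 to 0.301 percentage points over single libraries left out. dct-17 reversed to -0.15 without fndc-1 libraries 4 and 5. Counts over all genes moved more, and the cause was not tested. With DESeq2, 244 genes rose and 119 fell in the double mutant over fndc-1, 476 and 303 in the fndc-1 mutant over the wild type, and 847 and 523 in the double mutant over the wild type. CUB-like genes then numbered 9 and 11 in the first 2 comparisons, and neighbours 2 in the fndc-1 mutant over the wild type. Without double-mutant libraries 2 and 4, 554 genes rose and 562 fell in the fndc-1 mutant over the wild type, and 360 rose in the double mutant over the wild type, where 11 CUB-like genes and 3 neighbours passed. Without fndc-1 libraries 4 and 5, 305 genes rose in the fndc-1 mutant over the wild type, with 2 neighbours, and 3 CUB-like genes passed in the double mutant over fndc-1. With only the strains compared, 357 rose and 218 fell in the fndc-1 mutant over the wild type, 242 and 33 in the double mutant over the wild type, and 1 neighbour passed in the double mutant over fndc-1. Falling genes in the double mutant over the wild type numbered 97 with no filter and 99 with upper-quartile factors. Whether replicate numbers pair the libraries was not settled. Of 15 same-numbered pairs 7 had r over 0.1, with values from -0.59 to 0.66. The pairs of number 4 had 0.66, 0.54 and 0.43, but differently numbered pairs could be as high (0.64 for fndc-1 library 4 and wild-type library 2). With a replicate block dod-24 was 1.29 (adjusted p 0.0101), 98 genes rose and 57 fell in the fndc-1 mutant over the wild type, and 61 fell in the double mutant over the wild type. Leaving out single libraries gave 2 to 6 CUB-like genes and 1 to 3 neighbours in the double mutant over fndc-1, and 92 to 374 rising, 50 to 362 falling genes and 1 to 2 neighbours in the fndc-1 mutant over the wild type. In the double mutant over the wild type it gave 319 to 665 rising and 54 to 492 falling genes. The low counts of dod-21 and C32H11.9 limit their precision.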
